A study of Mus musculus with 8 samples.

Results

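The genes described here are 42 transporters, channels, pumps and marker proteins of the mature collecting duct and neighbouring distal nephron. They were chosen by name: a probe belonged to the set where its gene name in the scanner files equalled a member, and each member was represented by its probe with the highest mean level over the 8 arrays. All 42 members were on the array, through 57 probes, among 35061 named genes in all. The label names the adult tissue in which these genes act, not the embryonic cells that were measured.

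The study profiled mouse embryonic cells of the ICR strain, sorted by flow cytometry, on Agilent 1-colour arrays. The 5 groups came to 8 arrays in all. Hoxb7-GFP cells, which carry a GFP transgene driven by the Hoxb7 promoter, are precursors of the ureteric bud. They were taken at E8.75 (1 array of undivided cells, whose own label names no Flk1 selection, while the design text gives that gate for the lineage as a whole), at E9.5 and E10.5 (a rostral and a caudal array each, GFP-positive and Flk1-negative) and at E11.5 (1 array of the bud, GFP-positive and Flk1-negative). Wt1-GFP cells, from intermediate mesoderm that gives rise to nephron progenitors, were taken at E9.5 as a rostral and a caudal array. Flk1 (Kdr) is a receptor of endothelial cells. The labels name no mutation and no treatment, and the number of embryos behind an array was not stated in what was read here. No group held a repeat of the same position. The main fit has a position term, so its p-values rest on how rostral-caudal differences varied among the 3 split groups. They do not measure the spread between litters.

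As background, the collecting duct reabsorbs sodium through the epithelial sodium channel ENaC, takes up water through aquaporins under vasopressin, and secretes acid or bicarbonate through intercalated cells, which use a vacuolar proton pump, carbonic anhydrase and anion exchangers. The distal convoluted and connecting tubules upstream of it reabsorb sodium chloride, magnesium and calcium. The collecting duct descends from the nephric duct by way of the ureteric bud, and the sorted duct cells precede urine formation by the kidney that the bud builds.

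Levels below are in log2 units, with 0 at the array's own 75th percentile of processed signal, and 1 unit is a doubling. A level is compared across arrays for 1 probe and never between probes. A probe is called measured on an array where the scanner software scored every spot of it as well above background. Between 61.0% and 69.4% of spots were scored so per array, 0 spots were saturated, and the arrays correlated at r = 0.923 to 0.964 over probes. The duct markers Gata3, Pax2 and Hoxb7 were measured on all 8 arrays. Ret was measured on all 6 Hoxb7-GFP arrays and on neither Wt1-GFP array. Wt1 stood at 4.14 and 4.09 on the Wt1-GFP arrays and at -0.15 or lower on the Hoxb7-GFP arrays. Hoxb7 stood at 1.74 to 3.33 on the Hoxb7-GFP arrays, the lowest at E8.75, and at 1.56 and 1.71 on the Wt1-GFP arrays. A set of 4 arrays lay in one part of the slide (E8.75, both E9.5 duct arrays and the rostral E10.5 array) and the other 4 in a second part (the caudal E10.5, E11.5 and both Wt1-GFP arrays).

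At E8.75, 27 of the 42 members (64.3%) were measured, where 71.6% of all named genes were. Of the 42, 18 members (42.9%) were measured on all 8 arrays, against 56.8% of all named genes, and 5 members (11.9%) on none, against 16% of all named genes. The 5 without a measured array were Kcnj1 (the ROMK potassium channel of the thick limb and principal cell), Trpv5 (the apical calcium channel of the distal tubule) and the kidney-type proton pump subunits Atp6v0a4, Atp6v1c2 and Atp6v1g3. Between 21 and 32 of the 42 members were measured on an array. The rostral E10.5 array had the most, at 32 members or 76.2%, with 72.6% of all named genes. The caudal Wt1-GFP array had the fewest, at 21 members or 50%, with 64.9% of all named genes. The remaining 37 members, measured on at least 1 array, entered the tests with 29438 named genes.

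**Figure D1:**
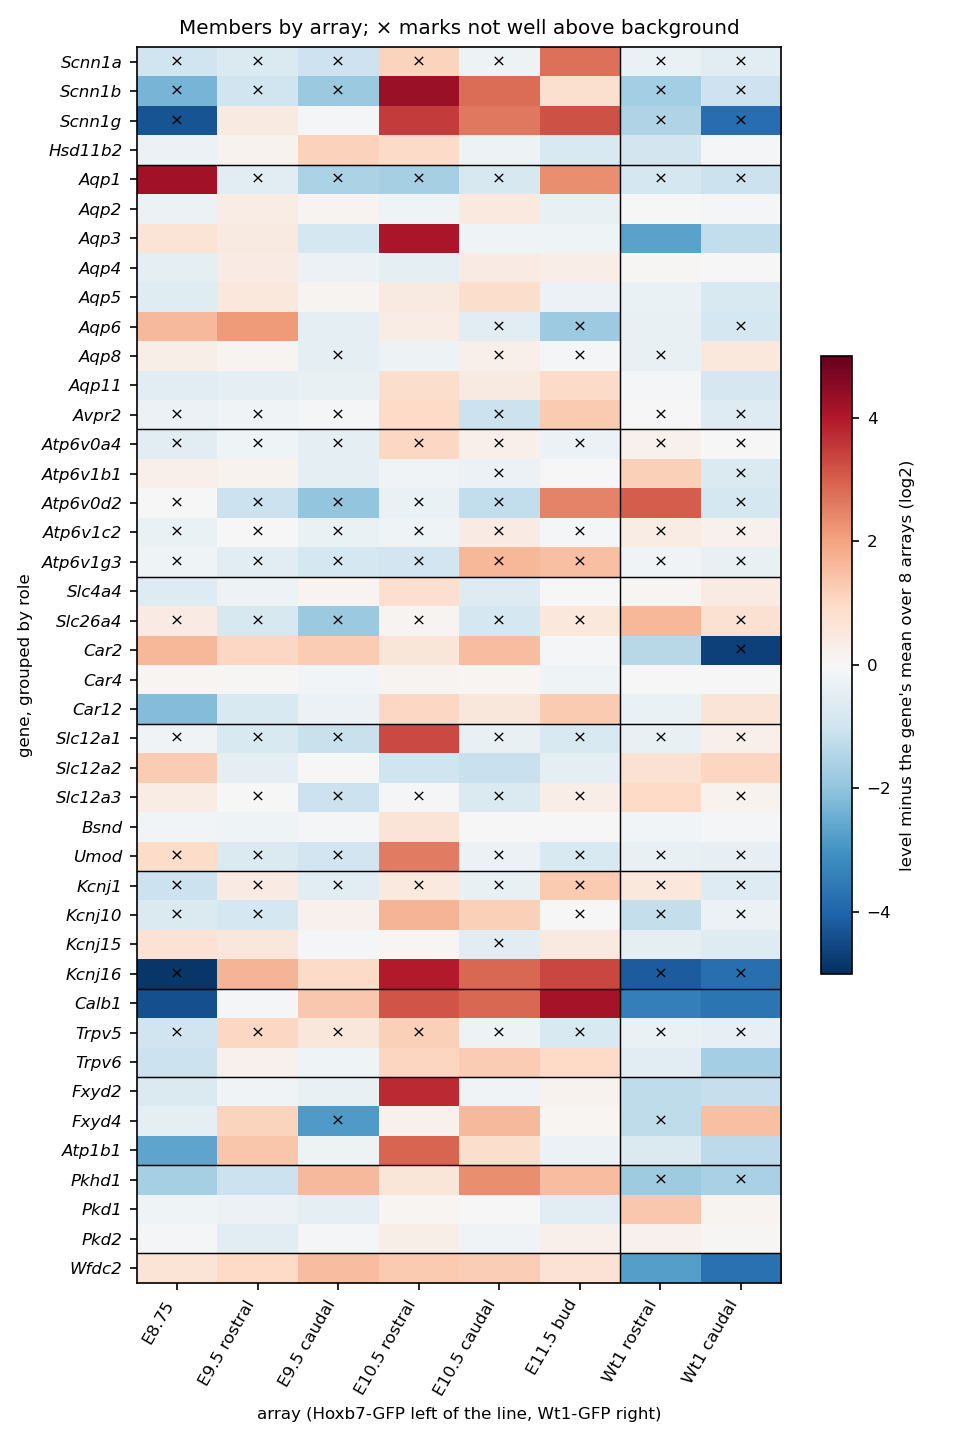
Heat map of all 42 members (rows, grouped by role) on the 8 arrays (columns). Colour is the level minus the gene's own mean over the 8 arrays in log2 units, and a cross marks an array on which the gene was not well above background. Kcnj16, Calb1 and Scnn1g are low at E8.75 and in Wt1-GFP cells and high from E10.5 on, and Aqp3, Fxyd2, Slc12a1 and Umod are high on the rostral E10.5 array.

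Each comparison asked how cells differed by reporter at E9.5, from stage to stage in the duct lineage, or by position. The limma fit over all 8 arrays had 2 residual degrees of freedom, and no gene passed an adjusted p of 0.05 in any comparison (0 of 29438 named genes, a percent called of 0, and 0 of 37 members). When the variance prior was allowed to follow intensity (limma with intensity trend), 1.02% of all named genes passed as higher and 1.35% as lower in E9.5 duct than in Wt1-GFP cells. The members that passed this alternative were Kcnj16, Calb1 and Wfdc2, all higher in duct. Between E8.75 and E9.5, 0.673% of named genes passed as higher at E9.5 and 0.931% as lower, and the members were Kcnj16, Calb1, Scnn1g and Atp1b1, all higher. From E9.5 to E10.5 and from E10.5 to E11.5, 0 genes passed with either fit. These member calls rest on single arrays: with the trend, 0 members passed in either of the first comparisons without the rostral E10.5 array, without the caudal E10.5 array, without the caudal E9.5 array or with slide part as a block, and 0 passed from E8.75 to E9.5 without the rostral E9.5 array. Because no gene passed the test without the trend, the differences below are given as values.

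Unadjusted, 7 members were higher and 4 lower in duct than in Wt1-GFP cells at p under 0.05, where 6.4% and 7.19% of all named genes were. From E8.75 to E9.5 the counts were 5 higher (background 6.81%) and 4 lower (9.17%). From E9.5 to E10.5 they were 10 higher (3.76%) and 1 lower (3.74%), with Slc12a2 the lower one. From E10.5 to E11.5 they were 3 higher (7.09%) and 2 lower (5.5%). These counts include members measured on no array of either group compared. Scnn1a and Slc26a4, among the 10 higher at E10.5 than at E9.5, were measured on no array of either stage. Counted by size alone, 16 members were higher by 2-fold or more at E10.5 than at E9.5 and 0 were lower, where 6.37% and 6.35% of all named genes were. The median difference of the 37 members from E9.5 to E10.5 was 0.47, beside -0.01 over all genes tested. Of those 16, Scnn1a was measured on no array of either stage. Slc12a1 and Umod, also among the 16, were measured on the rostral E10.5 array alone and entered the tests through it. Without the rostral E10.5 array, 11 members were higher by 2-fold or more.

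For the reporters at E9.5, 11 members were 2-fold or more higher in duct (background 9.45%) and 5 lower (7.05%), and the arrays of the groups did not overlap for 14 higher (19.8%) and 9 lower members (28.2%). From E8.75 to E9.5, 7 members were 2-fold or more higher (12.1%) and 5 lower (11.4%), with 17 higher (34.6%) and 15 lower (41.6%) outside the single E8.75 array. From E9.5 to E10.5 the groups did not overlap for 14 higher (17.8%) and 1 lower (17%). The 14 included Scnn1a, measured on no array of either stage, and Slc12a1 and Umod, measured on the rostral E10.5 array alone. From E10.5 to E11.5, 5 members were 2-fold or more higher (10.8%) and 10 lower (10.7%), with 12 above (36.7%) and 16 below (38.2%) both E10.5 arrays. Over the 6 Hoxb7-GFP arrays, the slope per embryonic day passed with the intensity trend for 4 members as higher, Calb1, Kcnj16, Scnn1g and Car12 (1.31% of all genes), and for 1 as lower, Slc12a2 (1.11%). Kcnj16 (-6.81) and Scnn1g (-6.61) were not measured at E8.75, so their slopes start from levels not well above background. At an unadjusted p under 0.05 the slope was higher for 10 members (8.15%) and lower for 2 (8.03%). Without either E10.5 array, 0 members had a slope past the trend's threshold.

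Read over single arrays, 11 members lay higher on all 5 later duct arrays than on both Wt1-GFP arrays (9.2% of all genes), among them Scnn1g, Kcnj16, Calb1, Trpv6, Atp1b1 and Wfdc2, and 3 lay lower (15.1%), Slc26a4, Slc12a2 and Pkd1. Against the E8.75 array, 13 members lay higher on all 5 (20.8%) and 7 lower (27.8%). The E11.5 bud was the highest array for 5 members (15%), E8.75 for 4 (19.3%) and a Wt1-GFP array for 6 (26.8%).

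**Figure D2:**
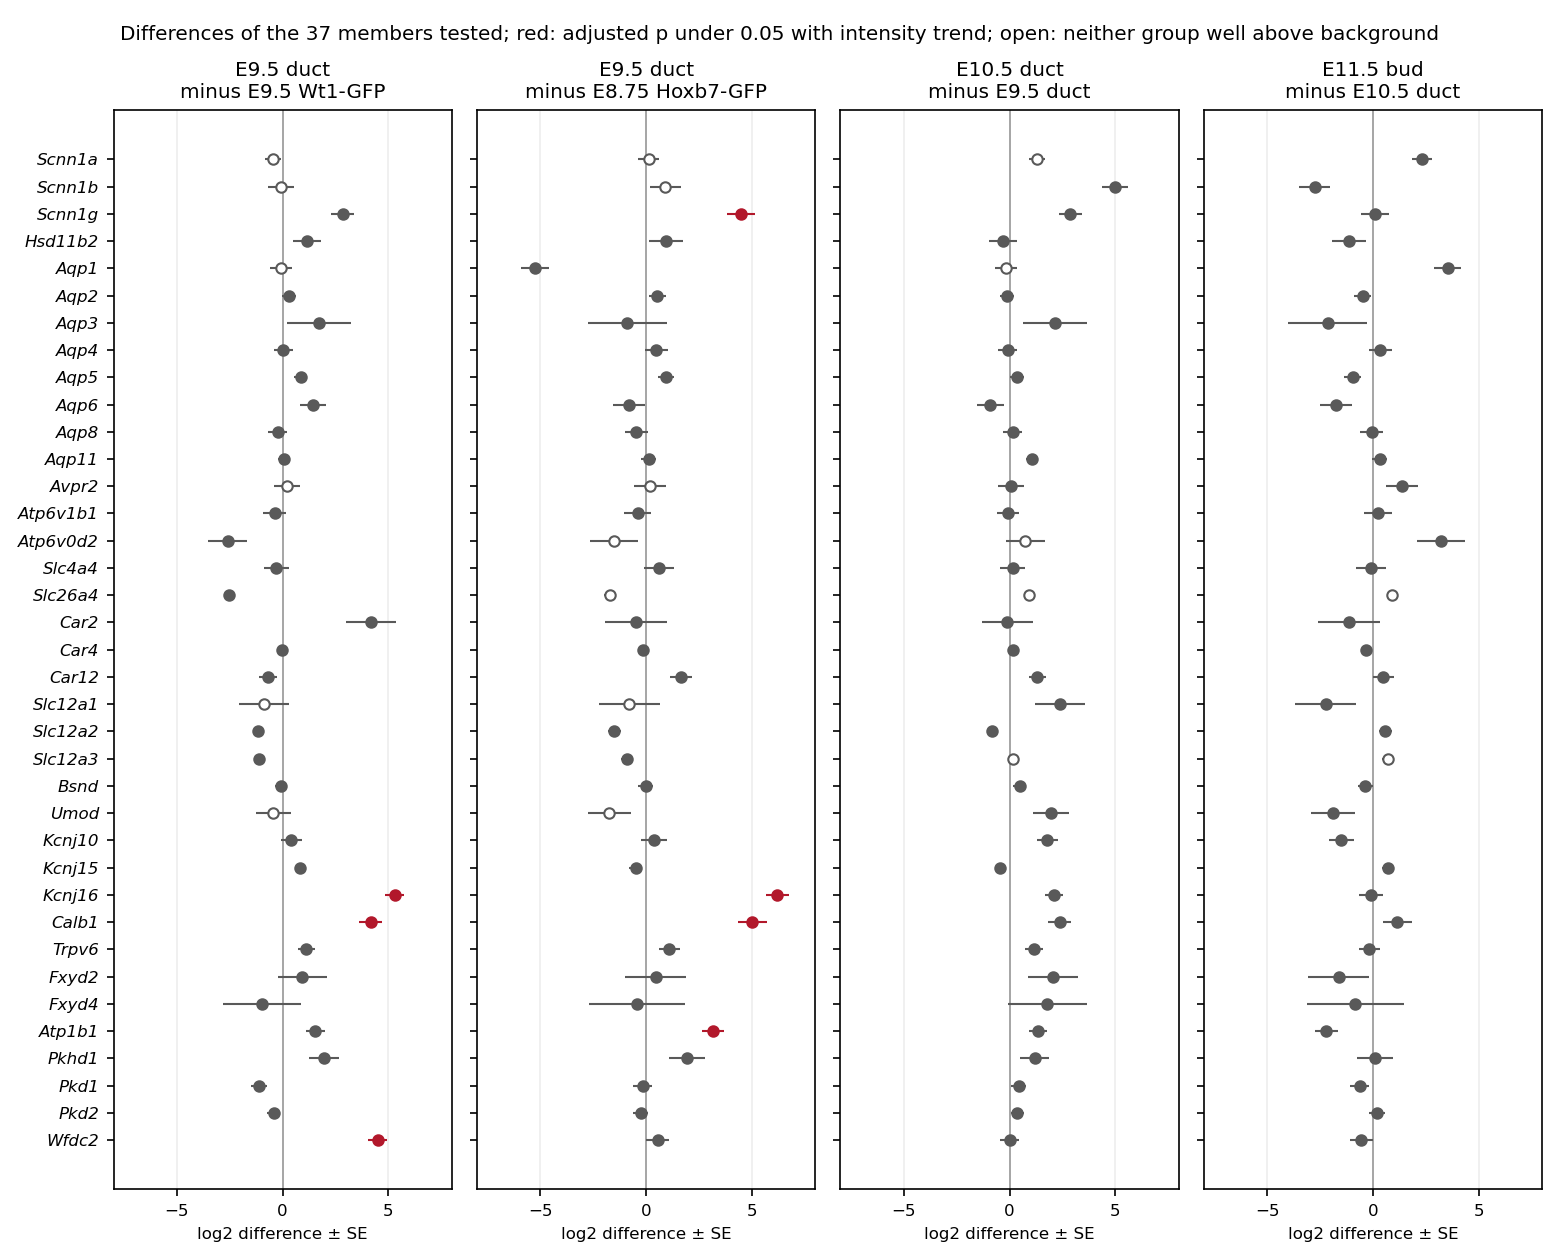
Fitted log2 differences with standard errors (horizontal bars) for the 37 members tested, in 4 panels: E9.5 duct minus Wt1-GFP (2 arrays each), E9.5 duct minus E8.75 (2 arrays and 1), E10.5 minus E9.5 duct (2 each) and E11.5 bud minus E10.5 duct (1 and 2). Red marks an adjusted p under 0.05 with the intensity trend, and open circles mark members not well above background in either group. Red points occur in the left panels, and in the third most points lie to the right of 0.

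The sodium channel subunits were first measured in the order gamma, beta, alpha. Each has 1 probe, and detection by different probes cannot be read as an order of expression. ENaC is built from the subunits alpha (Scnn1a), beta (Scnn1b) and gamma (Scnn1g), and the beta and gamma genes are neighbours on mouse chromosome 7 with 0 protein-coding genes between their starts. The sequence just before the start of each of these neighbouring genes is shown because the genes were first measured at different stages. Both were copied from RefSeq (GRCm38.p6, plus strand), Scnn1g from chr7:121734229-121734419 and Scnn1b from chr7:121864788-121865037, and are written up to the base before the gene.
Scnn1g: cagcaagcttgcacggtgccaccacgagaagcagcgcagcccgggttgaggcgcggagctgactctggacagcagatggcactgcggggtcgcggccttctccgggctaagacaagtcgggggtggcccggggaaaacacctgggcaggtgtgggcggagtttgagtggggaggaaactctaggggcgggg
Scnn1b: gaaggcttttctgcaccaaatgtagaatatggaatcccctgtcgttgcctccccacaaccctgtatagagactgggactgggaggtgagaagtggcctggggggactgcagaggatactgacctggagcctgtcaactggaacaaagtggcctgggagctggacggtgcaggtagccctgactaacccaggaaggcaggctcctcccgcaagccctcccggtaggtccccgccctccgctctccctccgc

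Scnn1g was not measured at E8.75 (-6.61) or on the rostral (-3.77) and caudal (-6.11) Wt1-GFP arrays. It was measured at -1.84 (rostral) and -2.36 (caudal) at E9.5, at 1.20 and 0.35 at E10.5, and at 0.89 at E11.5. Every duct array from E9.5 on lay above the E8.75 array and both Wt1-GFP arrays, and the E10.5 and E11.5 arrays lay above both E9.5 arrays without overlap. Against E8.75, E9.5 duct was at least 5.47-fold higher (fitted difference 4.50 ± 0.66 SE; adjusted p = 0.213 in limma, 0.0477 with the intensity trend, range over the alternatives 0.0477 to 0.454). For each array of the lower group that did not measure the gene, a lower bound of this kind takes a floored level. That is the higher of the gene's own level and the lowest measured level of that array. These lowest measured levels ran from -4.70 to -3.89. Against Wt1-GFP cells E9.5 duct was at least 3.61-fold higher (2.83 ± 0.54; adjusted p = 0.269 in limma). With normexp background correction, these Scnn1g differences were 0.97 and 0.56, below the logarithms of these bounds, which hold for the processed signal. From E9.5 to E10.5 the fold was 7.34 (2.88 ± 0.54; adjusted p = 0.557), and the difference was 3.04 between the rostral arrays and 2.71 between the caudal arrays. From E10.5 to E11.5 the difference was 0.12 ± 0.66, and the groups overlapped.

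Scnn1b was measured on 3 arrays only, those of E10.5 and E11.5. Its level was -0.15 on the rostral and -1.65 on the caudal E10.5 array and -3.66 in the E11.5 bud, and between -6.80 and -5.46 on the 5 arrays where it was not measured. E10.5 duct was at least 11.9-fold higher than E9.5 duct (4.99 ± 0.61 SE; adjusted p = 0.507 in limma; 1.73 with normexp). That normexp value is below the logarithm of this bound, which, like the bounds between single arrays that follow, holds for the processed signal. The log2 difference was at least 4.165 between the rostral arrays, which shared a slide part, and at least 2.99 between the caudal arrays. The E11.5 bud lay below both E10.5 arrays, 6.77-fold lower than their mean (-2.76 ± 0.75; adjusted p = 0.356; -1.56 with normexp), and the difference from the caudal array of the same slide part was -2.01. Scnn1a was measured on 1 array, the E11.5 bud, at -3.10. The next array was the rostral E10.5 array at -4.72, not well above background. The bud was at least 2.30-fold higher than E10.5 duct (2.30 ± 0.48; adjusted p = 0.307; 0.40 with normexp, below the logarithm of this bound). No array before E11.5 therefore had all of alpha, beta and gamma above background, and the bud had all 3, with beta at its lowest measured level.

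Hsd11b2, the enzyme that inactivates glucocorticoids so that aldosterone alone occupies the mineralocorticoid receptor in ENaC-expressing cells, was measured on all 8 arrays and did not follow the subunits. Its levels were -1.60 at E8.75, -1.13 and -0.17 at E9.5, -0.36 and -1.56 at E10.5, -2.09 at E11.5 and -2.22 and -1.37 in Wt1-GFP cells (rostral first). The largest level was the caudal E9.5 array and the lowest the rostral Wt1-GFP array. E9.5 duct was 2.21-fold above Wt1-GFP cells (1.15 ± 0.67 SE; adjusted p = 0.491 in limma), and this value turned to -0.97 with slide part as a block.

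**Figure D3:**
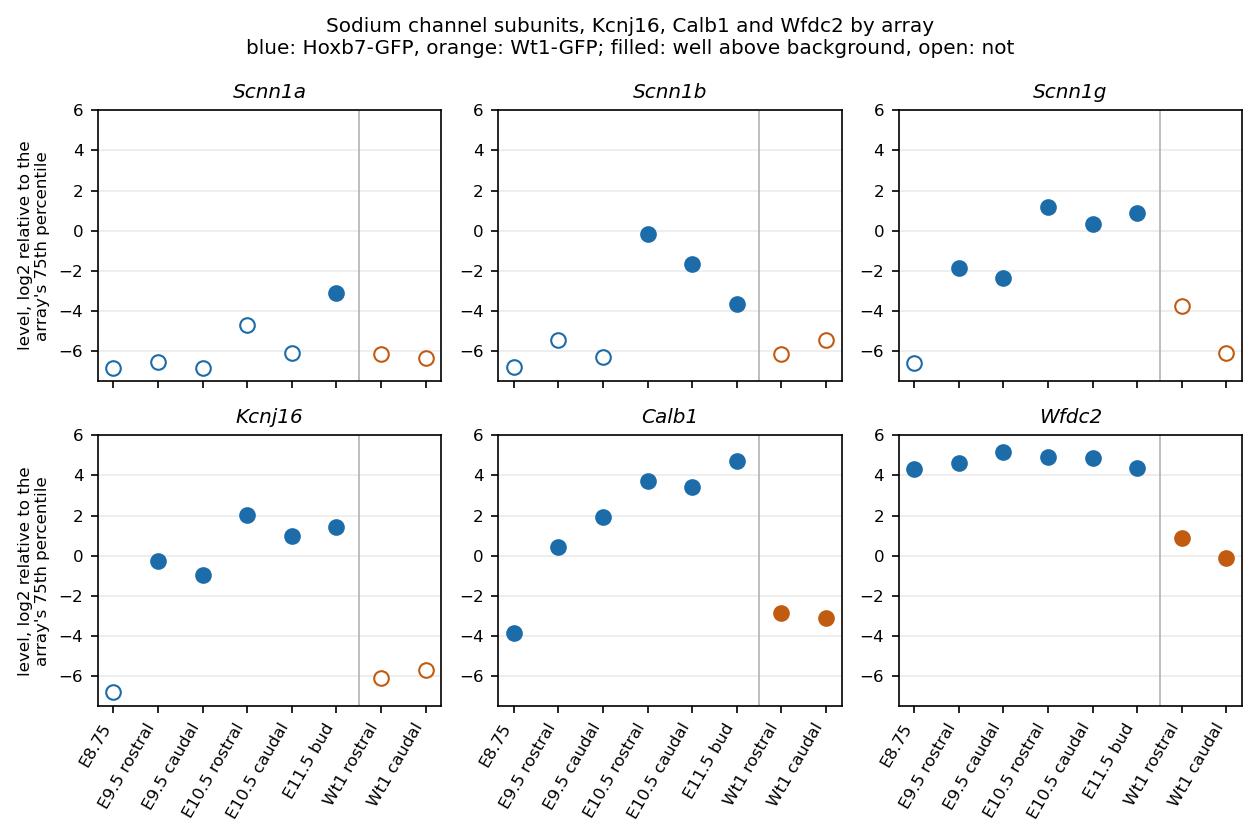
Levels of Scnn1a, Scnn1b, Scnn1g, Kcnj16, Calb1 and Wfdc2 (1 panel each) on the 8 arrays. Each point is 1 array, on a log2 scale relative to the array's 75th percentile; blue is Hoxb7-GFP, orange is Wt1-GFP, and an open point is not well above background. The gamma subunit is filled from E9.5, the beta subunit from E10.5 and the alpha subunit at E11.5 alone, while Wfdc2 lies between 4.32 and 5.16 on all 6 Hoxb7-GFP arrays.

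Of the inward rectifier potassium channels, Kcnj16 had the widest separation between duct and the other cells. Kcnj16 (Kir5.1) forms channels with Kcnj10 (Kir4.1) on the basolateral membrane of distal tubule and collecting duct cells, where they set the membrane voltage. For Kcnj16, 4 start sites are in the RefSeq table, and the sequence before the outermost one is shown because it holds 3 of the 4 motifs searched, with matches in capitals (from chr11:110967783-110968032, GRCm38.p6, plus strand).
Kcnj16: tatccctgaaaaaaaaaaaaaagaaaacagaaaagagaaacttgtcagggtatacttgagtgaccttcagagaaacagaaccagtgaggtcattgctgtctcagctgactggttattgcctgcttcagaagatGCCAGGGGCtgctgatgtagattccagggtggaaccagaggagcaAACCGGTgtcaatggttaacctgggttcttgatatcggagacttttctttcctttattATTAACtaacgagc

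The capitals are, from left to right, the AP-2 motif GCCNNNGGC beginning 117 bases before the start, the grainyhead motif ACCGGTT (here on the opposite strand) 72 bases before it, and the motif GTTAAT (also on the opposite strand) 14 bases before it. Both strands were searched in the 250 bases before each start, and matches of different motifs did not overlap here. The motif GTTAAT was in 6.43% of all 32851 promoters, the AP-2 motif in 13.7%, the grainyhead motif in 0.831% and the fourth, the GATA motif AGATAA, in 9.99%. Of the 42 members, 33 had a RefSeq promoter, 38 promoters in all. Among those 38, GTTAAT was in 5 (Kcnj16, Pkhd1, Umod, Atp6v0a4 and Atp6v1g3), the AP-2 motif in 6, the grainyhead motif in 1 (Kcnj16) and the GATA motif in 4. A match is a stretch of letters, not a binding site.

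Kcnj16 stood at -0.24 and -0.97 on the rostral and caudal E9.5 duct arrays, at 2.03 and 0.96 at E10.5 and at 1.40 in the E11.5 bud. It was not measured at E8.75 (-6.81) or in Wt1-GFP cells (-6.10 and -5.71). The 5 duct arrays from E9.5 on were thus the only ones on which it was measured, and E10.5 and E11.5 lay above both E9.5 arrays. E9.5 duct was at least 10.65-fold above Wt1-GFP cells (5.30 ± 0.45 SE; adjusted p = 0.175 in limma, 0.0223 with the intensity trend, range over the alternatives 0.0223 to 0.647) and at least 15.4-fold above E8.75 (6.21 ± 0.55; adjusted p = 0.189 in limma, 0.0461 with the trend, range 0.0461 to 0.454). With normexp the Kcnj16 differences were 1.75 and 2.01, below the logarithms of these bounds, which hold for the processed signal. From E9.5 to E10.5 the fold was 4.29 (2.10 ± 0.45; adjusted p = 0.575). From E10.5 to E11.5 the difference was -0.09 ± 0.55.

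Its partner Kcnj10 was measured on 3 arrays: -4.07 on the caudal E9.5 array and -2.56 and -3.06 at E10.5. The E10.5 arrays lay above all others. The fitted difference from E9.5 duct, where 1 of the 2 arrays was measured, was 1.80 ± 0.50 SE (adjusted p = 0.631 in limma; 0.46 with normexp), and the E11.5 bud was not measured (-4.30). The levels of both partners cannot be set against each other, since they come from different probes. Kcnj15 (Kir4.2) lay between -3.87 and -2.49, measured on 7 arrays, highest at E8.75 and lowest in caudal Wt1-GFP cells, and its second probe disagreed in the direction of the reporter difference (-0.79 against 0.80).

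Among the calcium-handling members, Calb1 had the steepest course over embryonic day. Calb1 (calbindin-D28K) buffers calcium in distal tubule cells as it passes from the apical channel to the basolateral exit. Its levels were -3.85 at E8.75, 0.46 and 1.91 at E9.5, 3.70 and 3.40 at E10.5 and 4.71 at E11.5, against -2.87 and -3.10 in Wt1-GFP cells. No 2 stages overlapped, and each stage lay above the one before. E9.5 duct was 18.0-fold above Wt1-GFP cells (4.17 ± 0.55 SE; adjusted p = 0.216 in limma, 0.0294 with the intensity trend, range over the alternatives 0.0294 to 0.692) and 32.8-fold above E8.75 (5.04 ± 0.68; adjusted p = 0.208, 0.0461 with the trend, range 0.0461 to 0.454). With normexp the Calb1 differences were 2.70 and 3.05. The fitted slope was 2.96 ± 0.26 per embryonic day (adjusted p = 0.102, 0.0159 with the trend, range 0.0159 to 0.414). A second, dimmer Calb1 probe ran in the same directions, from -5.20 at E8.75 to -0.51 at E11.5.

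Trpv6, an apical calcium channel related to Trpv5, was measured on all 8 arrays. It stood at -2.996 at E8.75, -1.69 and -2.13 at E9.5, -0.84 and -0.66 at E10.5 and -0.93 at E11.5, against -2.44 and -3.63 in Wt1-GFP cells. The 5 duct arrays from E9.5 on lay above E8.75 and both Wt1-GFP arrays, with 2.18-fold between E9.5 duct and Wt1-GFP cells (1.13 ± 0.41 SE; adjusted p = 0.377 in limma) and 2.23-fold between E10.5 and E9.5 (1.16 ± 0.41; adjusted p = 0.669). Trpv5 was not measured on any array.

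Wfdc2 separated the reporters without a course over time. It encodes a secreted whey acidic protein (HE4) made by several epithelia. The sequence before its outermost RefSeq start is shown because it was the member that both probes placed above every Wt1-GFP array on all 6 Hoxb7-GFP arrays (from chr2:164562465-164562714, GRCm38.p6, plus strand); none of the 4 motifs was found in it.
Wfdc2: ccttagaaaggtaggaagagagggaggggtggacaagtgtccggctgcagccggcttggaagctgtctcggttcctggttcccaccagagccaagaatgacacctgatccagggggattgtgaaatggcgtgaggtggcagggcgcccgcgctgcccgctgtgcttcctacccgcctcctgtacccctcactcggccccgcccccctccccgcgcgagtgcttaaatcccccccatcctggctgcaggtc

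Wfdc2 levels were 4.32 at E8.75, 4.60 and 5.16 at E9.5, 4.93 and 4.86 at E10.5 and 4.35 at E11.5, against 0.87 and -0.11 in rostral and caudal Wt1-GFP cells. All 6 Hoxb7-GFP arrays, E8.75 included, lay above both Wt1-GFP arrays. E9.5 duct was 22.6-fold higher than Wt1-GFP cells (4.50 ± 0.45 SE; adjusted p = 0.195 in limma, 0.0173 with the intensity trend, range over the alternatives 0.0173 to 0.647). Between neighbouring stages it differed by 0.56 ± 0.55, 0.02 ± 0.45 and -0.55 ± 0.55. A second probe gave the same separation, from 2.43 to 3.19 on the Hoxb7-GFP arrays and at -1.27 and -1.32 in Wt1-GFP cells.

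The carbonic anhydrases, which supply protons and bicarbonate, differed from one another. Car2, the cytosolic enzyme of intercalated cells, stood at 0.07 at E8.75, -0.53 and -0.29 at E9.5, -0.98 and -0.04 at E10.5 and -1.63 at E11.5. In Wt1-GFP cells it stood at -2.97 on the rostral array and was not measured on the caudal one (-6.23). All 6 Hoxb7-GFP arrays lay above both Wt1-GFP arrays, and E8.75 was the highest. The fitted difference between E9.5 duct and Wt1-GFP cells, where 1 of the 2 arrays was measured, was 4.20 ± 1.19 SE (adjusted p = 0.333 in limma). It was 2.27 without the caudal Wt1-GFP array and 1.71 with normexp. Car12, a membrane-bound enzyme of principal cells, was -3.77 at E8.75, -2.34 and -1.88 at E9.5, -0.56 and -1.02 at E10.5 and -0.29 at E11.5, but stood at -1.90 and -0.95 in Wt1-GFP cells. It was higher at each later stage, with a slope of 1.25 ± 0.20 per day (adjusted p = 0.137, 0.0474 with the intensity trend, range over the alternatives 0.0474 to 0.414), and did not separate the reporters.

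The brightest Car4 probe was nearly flat, between 1.98 and 2.32 on all 8 arrays. The second Car4 probe was measured on 7 arrays and ran from 0.74 in caudal Wt1-GFP cells to -4.42 at E11.5, so the gene cannot be read from the brighter probe alone. Slc4a4 (NBCe1, a sodium bicarbonate cotransporter) lay between -1.30 and 0.20, with E9.5 duct and Wt1-GFP cells overlapping. Slc26a4 (pendrin, the chloride-bicarbonate exchanger of non-alpha intercalated cells) was measured on the rostral Wt1-GFP array alone, at -3.34. The caudal Wt1-GFP array (-4.23) was not well above background, so no lower bound is given. The fitted difference between E9.5 duct and Wt1-GFP cells was -2.52 ± 0.20 SE (adjusted p = 0.175 in limma). With floored levels it was -0.73, and with normexp -0.42.

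Of the 5 listed member subunits of the vacuolar proton pump, 2 were measured on at least 1 array. Atp6v1b1, the B1 subunit of intercalated cells, was measured on 6 arrays at -4.61 to -2.96, with the rostral Wt1-GFP array the highest. Atp6v0d2 was measured at -1.85 in rostral Wt1-GFP cells and at -2.40 in the E11.5 bud, and on no other array. Its second probe was highest on other arrays, caudal Wt1-GFP (-3.45) and caudal E10.5 (-3.58), so these probes disagree. Of 20 other subunits, 0 passed in limma between E9.5 duct and Wt1-GFP cells (4 higher and 0 lower at an unadjusted p under 0.05, where 6.4% and 7.19% of all genes were) and 0 with the trend. Their median difference between E9.5 duct and Wt1-GFP cells was 0.32, beside -0.06 over all genes. Atp6ap1 was 1.92 and 1.97 in E9.5 duct against 1.01 and 1.09, and Atp6v0b 2.83 and 2.98 against 2.22 and 1.99.

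The water channels had no common course. Aqp3, the basolateral glycerol and water channel of principal cells, stood at 3.35 on the rostral E10.5 array and between -3.43 and -0.07 on the other 7. It was -0.07 at E8.75, -0.31 and -1.61 at E9.5, -0.95 on the caudal E10.5 array, -0.94 at E11.5 and -3.43 and -1.96 in Wt1-GFP cells. The rostral E10.5 array was 3.42 above the next. Aqp3 was 3.33-fold above Wt1-GFP cells at E9.5 (1.73 ± 1.52 SE; adjusted p = 0.633 in limma), a direction that turned with slide part as a block (-2.65) and with the rostral Wt1-GFP array left out (-0.40). The difference from E9.5 to E10.5 was 2.16 ± 1.52, and -0.03 without the rostral E10.5 array.

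Aqp2, the vasopressin-regulated apical channel of principal cells, lay between -2.45 and -1.61 on all 8 arrays, and the brighter Aqp4 probe between -2.16 and -1.30. In neither did a stage or reporter stand apart by 2-fold. The dimmer Aqp4 probe was highest on the rostral E10.5 array, at -1.45, with the next at -2.52. Aqp11, an intracellular aquaporin whose loss causes renal cysts in mice, was 2.08-fold higher at E10.5 than at E9.5 (-0.90 and -1.32 against -2.20 and -2.13; 1.06 ± 0.29 SE; adjusted p = 0.631 in limma) and -0.80 at E11.5. Aqp5 was above Wt1-GFP cells (-2.30 and -2.72) on all 5 duct arrays from E9.5 on, at -2.27 to -1.08, by the brighter probe. The dimmer Aqp5 probe, measured on 6 arrays, did not separate them: it stood at -4.43 to -2.82 on those 5 arrays and at -3.69 and -3.50 in Wt1-GFP cells. Avpr2, the vasopressin receptor, was measured on the rostral E10.5 array (-3.69) and at E11.5 (-3.37), while its other probe was highest on the caudal E10.5 array (-2.28). Aqp6 and Aqp8 were measured on 5 and 4 arrays, and the Aqp6 probes disagreed in the direction of the reporter difference.

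Aqp1, a channel of proximal tubule, red cells and endothelium, was measured on 2 arrays, at -1.02 at E8.75 and -2.92 at E11.5. On the other 6 arrays it lay between -6.87 and -5.76. E9.5 duct was at least 11.0-fold lower than E8.75 (-5.26 ± 0.65 SE; adjusted p = 0.208 in limma, 0.0597 with the intensity trend, range over the alternatives 0.0561 to 0.454). With normexp the difference was -1.62, smaller in size than the logarithm of this bound, which holds for the processed signal. On the E8.75 array, all 9 endothelial markers were measured, with a summed signal of 38.9 times the 75th percentile against 4.27 to 6.23 on the other arrays, and 8 of 9 visceral endoderm and gut markers were measured, with a sum of 7.80 against 0.341 to 1.30. The erythroid sum at E8.75 was 3.62, within the 1.05 to 37.4 of the other arrays. The part of these cells in the Aqp1 level was not tested. In sorted pools of this kind, more cells of a type and more RNA per cell cannot be told apart.

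Of the sodium pump subunits, Atp1b1 and Fxyd2 were highest on the rostral E10.5 array and Fxyd4 was not. Atp1b1, the beta subunit of the sodium-potassium pump, stood at -2.60 at E8.75, 1.39 and -0.24 at E9.5, 2.93 and 0.92 at E10.5, -0.28 at E11.5 and -0.68 and -1.27 in Wt1-GFP cells. All 5 later duct arrays lay above E8.75 and both Wt1-GFP arrays, and in each of the 3 split groups the rostral array was higher. The fold from E8.75 to E9.5 was 9.05 (3.18 ± 0.53 SE; adjusted p = 0.226 in limma, 0.0491 with the intensity trend, range over the alternatives 0.0491 to 0.463), and the E11.5 bud was 4.59-fold below E10.5 (-2.20 ± 0.53; adjusted p = 0.331). Fxyd2, the gamma subunit that tunes the pump in the distal nephron, was 1.52 on the rostral E10.5 array and between -3.48 and -2.03 on the other 7, and a second probe had the same peak (0.93). Fxyd4 (CHIF), the collecting duct counterpart, was measured on 6 arrays with no order by stage or reporter, from -4.30 to -2.23. Of 11 other pump and FXYD genes, 0 passed limma between E9.5 duct and Wt1-GFP cells (0 higher and 2 lower at an unadjusted p under 0.05) and 1 passed with the trend, as lower (1.35% of all genes); Fxyd6 was 6.05 and 6.30 in E9.5 duct, below the 6.85 and 7.41 of Wt1-GFP cells.

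Of the chloride cotransporters and distal nephron proteins, Slc12a1 and Umod were measured on 1 array only, the rostral E10.5 array. Slc12a1 (NKCC2) is the sodium-potassium-chloride cotransporter of the thick ascending limb, and Umod (uromodulin) the major secreted protein of that segment. Both belong to the nephron rather than to the duct. The sequences before Umod and before Pkhd1, described next, are shown because each holds the motif GTTAAT, in capitals (Umod from chr7:119479263-119479512, Pkhd1 from chr1:20618083-20618307, GRCm38.p6, minus strand).
Umod: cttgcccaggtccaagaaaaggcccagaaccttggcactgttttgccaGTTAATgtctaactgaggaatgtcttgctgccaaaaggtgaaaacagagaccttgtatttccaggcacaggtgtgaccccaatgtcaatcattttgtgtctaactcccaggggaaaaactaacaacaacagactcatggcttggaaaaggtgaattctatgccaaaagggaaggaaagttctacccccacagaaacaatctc
Pkhd1: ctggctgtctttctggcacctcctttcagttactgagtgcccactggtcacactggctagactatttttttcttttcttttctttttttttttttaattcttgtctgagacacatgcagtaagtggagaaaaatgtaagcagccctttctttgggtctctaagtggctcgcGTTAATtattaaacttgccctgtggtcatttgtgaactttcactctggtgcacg

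Slc12a1 stood at -2.58 on the rostral E10.5 array and between -6.98 and -5.60 elsewhere, and Umod at -3.11 there and between -6.65 and -4.79 elsewhere. Slc12a3, the thiazide-sensitive cotransporter of the distal convoluted tubule, was measured at E8.75 (-4.40) and in rostral Wt1-GFP cells (-3.78). Bsnd (barttin), a chloride channel subunit, was nearly flat at -2.57 to -1.73, with the rostral E10.5 array the highest. Slc12a2 (NKCC1), the basolateral cotransporter of many epithelia and embryonic tissues, stood at 2.99 at E8.75, 1.26 and 1.72 at E9.5, 0.74 and 0.61 at E10.5 and 1.26 at E11.5, with 2.49 and 2.82 in Wt1-GFP cells. All 5 later duct arrays lay below E8.75 and below both Wt1-GFP arrays. Duct at E9.5 was 2.24-fold below Wt1-GFP cells (-1.16 ± 0.25 SE; adjusted p = 0.294 in limma, 0.0626 with the intensity trend, range over the alternatives 0.0626 to 0.656), and the slope was -0.62 ± 0.12 per day (adjusted p = 0.162, 0.0486 with the trend, range 0.0463 to 0.573).

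By its brighter probe, Pkhd1 was the one member lower on the rostral than on the caudal array in all 3 split groups. It encodes fibrocystin, the ciliary membrane protein mutated in recessive polycystic kidney disease. It stood at -4.34 at E8.75, -3.76 and -1.04 at E9.5, -2.07 and -0.35 at E10.5 and -1.13 at E11.5, and was not measured in Wt1-GFP cells (-4.45 and -4.29). The caudal duct arrays and the bud were the highest. Rostral minus caudal was -2.72 at E9.5 and -1.72 at E10.5, and the position term was -1.53 ± 0.57 SE (adjusted p = 0.713 in limma). E9.5 duct was at least 3.07-fold above Wt1-GFP cells (1.97 ± 0.70; adjusted p = 0.371). With normexp the difference was 0.71, below the logarithm of this bound, which holds for the processed signal. A dimmer second probe was well above background on 1 array, and its reporter difference was 0.16. That probe was higher rostrally in all 3 split groups. Its rostral and caudal levels were -5.77 and -5.95 at E9.5, -4.61 and -5.95 at E10.5, and -5.82 and -6.23 in Wt1-GFP cells. Pkd1 and Pkd2, the polycystins of dominant polycystic kidney disease, were measured on all arrays, at -0.95 to 0.97 and at 3.64 to 4.46. Pkd1 stood lower on all 6 Hoxb7-GFP arrays than on both Wt1-GFP arrays (2.16-fold at E9.5; -1.11 ± 0.37; adjusted p = 0.363).

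By position, 12 of the 37 members were higher on the rostral array in all 3 split groups, where 15.2% of all genes tested were. Pkhd1 alone, by its brighter probe, was lower in all 3, where 16.1% were. The 12 included Scnn1a, Scnn1g, Atp1b1, Umod and Slc26a4, several of which were not measured on 1 side or both. The position term passed for 0 of 29438 genes in limma (3.83% higher and 2.99% lower at an unadjusted p under 0.05) and for 0 with the intensity trend. Among members, Slc26a4, Slc12a3 and Atp1b1 had an unadjusted p under 0.05, all higher rostrally, with Atp1b1 at 1.41 ± 0.35 SE (adjusted p = 0.713 in limma). Of the split arrays, Slc26a4 and Slc12a3 were measured on the rostral Wt1-GFP array alone. Their position terms therefore rest mostly on levels not well above background. The difference of the position terms between duct and Wt1-GFP cells passed for 0 genes in limma, with 2.48% higher and 3.41% lower unadjusted, and for 1 gene, no member, as lower with the trend (0.0034%).

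**Figure D4:**
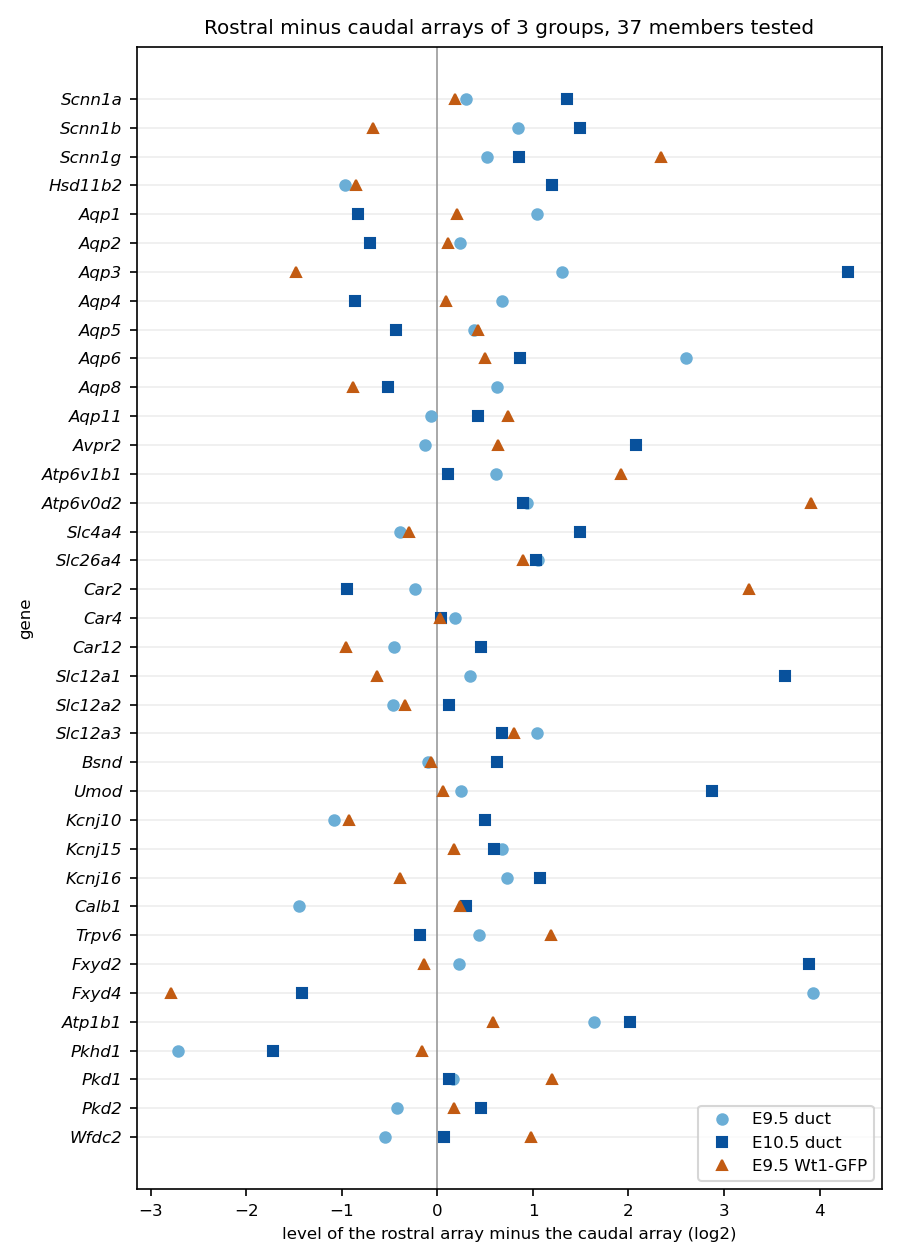
Level of the rostral array minus the caudal array (log2, horizontal axis) for the 37 members tested, in E9.5 duct (circles), E10.5 duct (squares) and E9.5 Wt1-GFP cells (triangles). Each point is a difference of 1 array from 1 array, including arrays on which the gene was not well above background. Among the E10.5 squares, those of Aqp3, Fxyd2, Slc12a1 and Umod lie farthest to the right, and Pkhd1 has all 3 symbols left of 0.

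The rostral E10.5 array was the highest of the 8 for 13 of 37 members (35.1%), where it was for 11.1% of all genes tested. Of the 37, 6 (16.2%) stood there by 2-fold or more above the next array, where 1.06% of all genes did: Fxyd2 by 3.55, Aqp3 by 3.42, Slc12a1 by 3.02, Umod by 1.68, Atp1b1 by 1.54 and Scnn1b by 1.49. Slc12a1 and Umod were measured on this array alone and entered the 37 through it. Both counts therefore include members that passed the filter only where they were high. The same array was highest for 7 of 13 factors known to control distal transport genes. Markers of the proximal tubule had a summed signal of 10.52 times the 75th percentile on that array, against 2.08 to 4.85 on the others, with 6 of 8 measured and Cubn and Slc5a1 not measured. Of the 7 proximal tubule markers tested, 2 were highest on that array. The sum was led by Lrp2 (megalin), at 2.80 there and 1.22 or lower elsewhere. Hnf4a, a proximal tubule factor counted here with the visceral endoderm and gut markers and with the factors, was measured there alone (-2.17). Of the 9 visceral endoderm and gut markers, 2 were measured on that array. The kidney cadherin Cdh16 stood at 3.73 there, beside 3.32 at E11.5. Both Hnf4a and Cdh16 were chosen for mention after their values were seen. The part of nephron cells in these member levels was not tested. Without this array, the Aqp3 difference from E10.5 to E11.5 was 0.05 instead of -2.15, and that of Fxyd2 0.31 instead of -1.61, while Kcnj16, Calb1, Scnn1g and Scnn1b kept their direction from E9.5 to E10.5.

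Genes that act with the members were counted from lists. Of 13 regulators and proteases of the sodium channel, 0 passed limma between E9.5 duct and Wt1-GFP cells (5 higher and 0 lower at an unadjusted p under 0.05, where 6.4% and 7.19% of all genes were) and 3 passed with the intensity trend, all higher (1.02% of all genes), with a median difference of 1.19 beside -0.06 over all genes. St14 (matriptase) was 0.87 and 2.41 in E9.5 duct and not measured in Wt1-GFP cells, at -6.03 and -4.48. Prss8 (prostasin), a protease that activates ENaC, was 1.80 and 2.80 against -0.24 and -3.12. Their inhibitors stood higher too: Spint1 was 0.91 and 2.40 against -3.04 and -1.57, and Spint2 2.42 and 3.31 against -1.33 and -0.06. Of 14 tested genes of distal chloride and magnesium transport, 1 passed with the trend as higher and 0 in limma (7 higher and 1 lower at an unadjusted p under 0.05). Cldn19, a claudin of the thick limb, was measured on the E9.5 and E10.5 duct arrays, with 0.30 on the rostral E10.5 array and -4.41 to -1.85 on the other 3.

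Of 13 factors known to control distal transport genes, 5 passed with the intensity trend as higher in E9.5 duct than in Wt1-GFP cells and 0 in limma (6 higher and 0 lower at an unadjusted p under 0.05). Of all genes, 1.02% passed as higher with the trend and 6.4% were higher unadjusted. Tfap2b, an AP-2 factor of the distal nephron, was 3.84 and 3.59 against unmeasured levels of -3.997 and -6.45, and was not measured at E8.75 (-6.86). Grhl2, a grainyhead factor of duct epithelium, was 2.13 and 4.07 against -4.37, not measured, and -2.59. Tfcp2l1, a factor of the collecting duct, was -3.67 at E8.75, 1.25 and 0.56 at E9.5, 4.85 and 3.58 at E10.5 and 5.39 at E11.5, and not measured in Wt1-GFP cells. In the ciliary list, 0 of 16 genes passed either fit (1 higher at an unadjusted p under 0.05), and Cys1 (cystin) was not measured at E8.75 or in Wt1-GFP cells and stood at -3.29 and -4.39, 0.61 and -0.83, and -0.34 on the later duct arrays. Of 9 vasopressin and cAMP genes tested, 0 passed either fit in the reporter comparison (0 at an unadjusted p under 0.05), and Gnas was 6.39 and 6.24 against 6.53 and 6.48. Of 10 intercalated cell genes, 1 passed with the trend as higher and 0 in limma (1 unadjusted); Kit was 2.09 and 3.56 against 0.33 and 0.59. Of 11 other carbonic anhydrases, 0 passed either fit (1 lower unadjusted); Car3 was not measured in E9.5 duct and stood at -1.09 and -2.88 in Wt1-GFP cells. The other aquaporin named by the rule, Aqp7, was -2.96 and -2.50 against -2.50 and -1.58.

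All Wt1-GFP arrays and no E9.5 duct array lay in the second slide part, so reporter and slide part cannot be told apart within E9.5, and the block is estimated from the E10.5 pair. Both E9.5 duct arrays and the E8.75 array shared a slide part, and there the differences of Kcnj16, Calb1, Scnn1g and Atp1b1 from E8.75 to E9.5 are as given above. Endothelial markers (9 of 9 lower at E9.5, median difference -3.30) and visceral endoderm and gut markers (8 of 9 lower, median -4.90) moved in the same comparison, and their part in these differences was not tested.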

How the data were processed

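Sorted cells of 8 samples, 1 array each, were profiled on 1-colour Agilent arrays: per the labels' protocols, 10 ng of total RNA was amplified with WT-Ovation Pico and labelled with Cy3. The authors deposited scanner output with processed intensity per spot from Agilent Feature Extraction 10.7.3.1, per the file headers, and a value table with no stated scale. That deposited table proved to be log2 intensity over the 75th percentile, centred on each probe's median (r = 0.99998 with the recomputed values), and served as an alternative.

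Control spots and flagged outliers were left out (18 of 55681 probes lost), spots of a probe averaged, and log2 processed signal set against the array's 75th percentile. Accessions renamed 2850 probes. Names measured on at least 1 array (29438) entered a limma fit (version 3.58.1, R 4.3.3) with 5 group terms and a position term, with Benjamini-Hochberg adjustment at a threshold of 0.05; the intensity trend was an alternative. The code of the fit was checked on simulated levels with independent noise. These held no effect of position, slide part or background, so the check does not bear on those limits. Alternatives covered background correction (normexp, offset 50), normalization, scaling, filters, floors, slide part, position term, probe choice, fewer samples and each array left out. Members and lists were chosen with earlier results of these data known. All members may be named; of each other list, the up to 4 genes with the largest reporter difference among those whose arrays did not overlap. Promoters came from RefSeq (GRCm38.p6). The number of arrays limits the precision. Some genes of these lists are counted but not reported here by name.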

Additional observations from a re-analysis of the deposited data

How the results depend on the processing

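Of 2732 member values recomputed under the alternatives, 130 had the opposite sign (4.76%), and 58 of the 148 differences turned under at least 1 setting. With limma, 0 members passed in any comparison under most settings; the exceptions follow, and the cause was not tested. With normexp background correction 1 member passed between E9.5 duct and Wt1-GFP cells and 4 for the slope; the members 2-fold higher and lower were 5 and 1 for the reporters, 3 and 2 from E8.75 to E9.5, 7 higher from E9.5 to E10.5, and 1 and 4 from E10.5 to E11.5. Keeping only genes measured on all 8 arrays, which tests fewer genes, gave 6 and 2, 4 and 1, 7 higher, and 1 and 4. Floored levels gave 3 lower for the reporters and 2 lower from E8.75 to E9.5. The intensity trend called 3, 4 and 5 members for the reporters, E8.75 to E9.5 and the slope. Slide part as a block gave 14 lower for the reporters, 2 lower from E9.5 to E10.5 and 6 lower from E10.5 to E11.5. Without the position term 2 members passed for the slope, and the mean over probes gave 3 higher from E10.5 to E11.5. Settings added after seeing the data combined the trend with quantile normalization (1 reporter call, 3 slope calls) and with normexp (1, 1 from E8.75 to E9.5, and 4).

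With each array left out, limma called 0 members; 2-fold counts ran from 8 to 12 higher and 4 to 8 lower for the reporters, 7 to 11 and 5 to 8 from E8.75 to E9.5, 11 to 16 and 0 to 2 from E9.5 to E10.5, and 3 to 6 and 6 to 10 from E10.5 to E11.5. With the trend added, calls ran from 0 to 5, 0 to 4 and, for the slope, 0 to 7. Among differences larger than their standard error, directions reversed as follows, with the ranges over arrays left out. From E9.5 to E10.5, Aqp3 ran from -0.03125 (without the rostral E10.5 array) to 4.355, Aqp5 from -0.06469 (without the caudal E10.5 array) to 0.7787 and Aqp6 from -1.864 to 0.05967 (without the rostral E9.5 array). Aqp5 was -0.06469 with the slide block and -0.20 with the mean over probes, which put Kcnj15 at 0.11. From E10.5 to E11.5, Aqp3 ran from -4.338 to 0.04783 and Fxyd2 from -3.529 to 0.31, the upper ends without the rostral E10.5 array and equal to the slide block's values. From E8.75 to E9.5, Aqp6 ran from -1.746 to 0.18 (without the caudal E9.5 array) and was 0.33 with the mean over probes. For the reporters, Aqp3 ran from -0.40 (without the rostral Wt1-GFP array) to 3.873 and was -2.65 with the slide block, where Hsd11b2 was -0.97. The Aqp4 slope went to -0.24 with the slide block. Smaller differences turned too: for the reporters, Fxyd2 was -2.905 and Kcnj10 -1.099 with the slide block, and without the caudal E9.5 array Fxyd4 was 2.042 for the reporters, 2.588 from E8.75 to E9.5 and -1.228 from E9.5 to E10.5. Scaling to the median moved the median of all genes to -0.162 for the reporters and -0.222 from E8.75 to E9.5. Fits on only the compared groups could not be made for E8.75 to E9.5 and E10.5 to E11.5, nor could fits that left out the one array of a group compared. Position, which pairs rostral and caudal arrays across groups, was a term of the fit, and the fit without it is given above; the labels give no replicate numbers. Levels near background limit the dim members: where a group was not measured, a lower bound is given, or a fitted difference that rests partly on background.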
